A study of Danio rerio with 16 samples.

Results

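The sites described here are 501 poly(A) sites of the zebrafish, Danio rerio, that were used at 24 hours post fertilization (hpf) and in adults and held few tags at 72 hpf. They were taken from 90940 sites found in 3P-Seq libraries, which sequence the ends of polyadenylated RNA and so mark where poly(A) tails begin. The libraries came from wild-type whole embryos at 24 hpf, wild-type whole embryos at 72 hpf and wild-type whole adults of mixed gender. Each stage has 1 library. The sources used here do not give how many animals went into each. The series has 13 more samples, of ChIP, input and RNA-Seq, which are not used here.

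A site is a cluster of RNA 3′ ends on a strand, named by the position with the most tags. Its level is given in CPM, its tags scaled to 1000000 tags per library. A member had at least 2 CPM at 24 hpf, at least 2 CPM in adults, and at 72 hpf at most 0.25 of the smaller of these levels. Sites whose adult and 24 hpf levels lay apart by 4 times plus 0.5 CPM or more were left out, as were chromosome M, chromosome 4 from 28 Mb and a stretch of chromosome 22 that starts at 25 Mb. The members were thus chosen by their CPM in all 3 libraries, so their levels below are a description with no test. Without the limit at 72 hpf, 10005 sites met these criteria, and the members were 5.01% of them. The remaining 9504 sites, which met the limits at 24 hpf and in adults and were not low at 72 hpf, are the comparison set used below.

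Most animal messenger RNAs are cut and polyadenylated at the end of the 3′ untranslated region, and many genes carry several such sites. Use of an upstream site gives a shorter transcript end and use of a downstream site a longer one, which changes the sequence open to microRNAs and RNA-binding proteins. At 24 hpf the zebrafish embryo has its body axis and early organs, and by 72 hpf it has usually hatched and its organs are differentiating, while the adult adds mature gonads and other adult tissues. A site can be low at a stage because the whole gene is low there or because the transcript ends elsewhere, and neighbouring sites of the same strand bear on this. No gene annotation of this genome build was used, so sites are given by position and carry no gene names. In whole animals, fewer cells of a type and less RNA per cell cannot be told apart.

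Depth was 7423152 tags for 24 hpf, 9813481 for 72 hpf and, for adults, 7470435. Where a site had 0 tags, its level could still be up to 0.404 CPM in the 24 hpf library, 0.306 CPM in the 72 hpf library and 0.402 CPM in the adult library. Intervals and floors cover counting error only, since copies of 1 molecule made by PCR are not independent and no stage has a replicate. Intervals on shares of sites treat each site as independent, which sites close together need not be.

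Together the members took 1.72% of all tags at 24 hpf (exact 95% binomial interval 1.71% to 1.72%), 0.202% at 72 hpf (0.199% to 0.205%) and 2.07% in adults (2.06% to 2.08%). Their median level was 5.12 CPM at 24 hpf, 0.51 CPM at 72 hpf and 6.43 CPM in adults. Most were thus sites of low level, with median counts of 38 (24 hpf), 5 (72 hpf) and 48 (adult) tags. A few sites carried most of the tags: the 10 members with the highest smaller level held 56.6% of the members' tags at 24 hpf, 53.0% at 72 hpf and 56.3% in adults. In the comparison set the median was 11.3 CPM at 24 hpf, 14.5 CPM at 72 hpf and 10.6 CPM in adults.

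**Figure D1:**
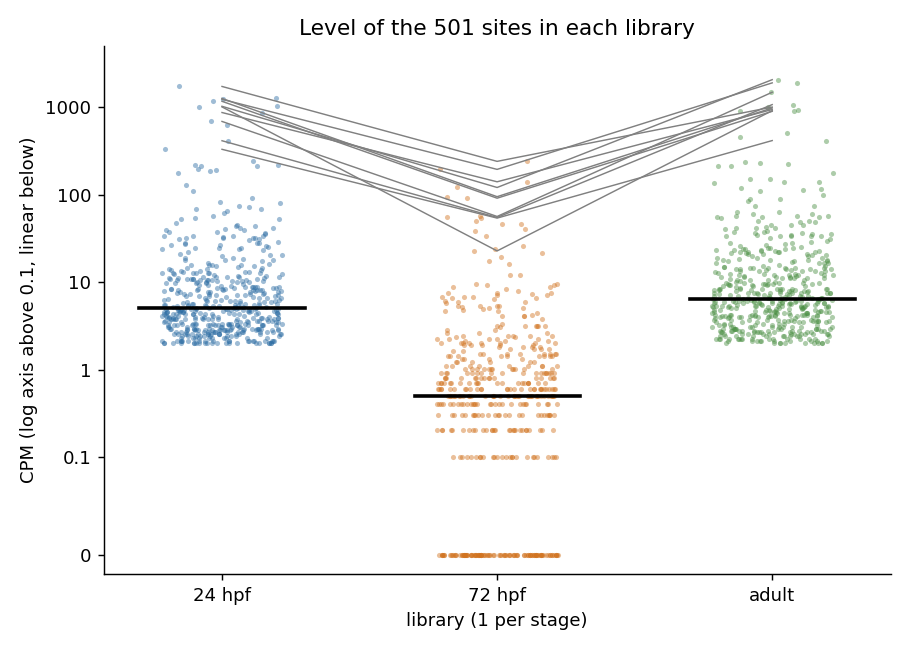
Each point is 1 of the 501 sites in 1 library, with its level in CPM on an axis that is logarithmic above 0.1 and linear below. Black bars are the medians of 5.12, 0.51 and 6.43 CPM, and grey lines join the 10 members with the highest smaller level, which lay between 22.8 and 240.4 CPM at 72 hpf.

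At 72 hpf, 106 members (21.2%) had no tags, 80 had 1 to 3 tags and 315 had 4 or more. The median ratio of the 72 hpf level to the smaller of the 24 hpf and adult levels was 0.133, and the middle 50% of members spanned 0.039 to 0.200. Adult levels were on the whole close to those at 24 hpf, with a median adult to 24 hpf ratio of 1.26, and 313 members (62.5%) were higher in adults, against 44.4% of the comparison set. The rule limits that ratio.

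Calls per pair of libraries asked for a ratio of at least 4-fold whose exact conditional interval excluded 2-fold, among sites with at least 20 tags over the pair. By this rule 412 of 443 testable members were lower at 72 hpf than at 24 hpf and 0 were higher, where 7.99% of all 27819 tested sites were lower and 20.1% higher. In the adult 448 of 462 testable members were higher than at 72 hpf and 0 were lower, where 19.1% of all 30075 tested sites were higher and 27.9% lower. For the adult against 24 hpf, 5 of 501 members were higher and 0 lower, where 23.5% and 20.2% of all 26068 tested sites were. The 5 lay just inside the limit on that ratio, the highest at 4.17 times. They were the minus-strand members at 14274714 on chromosome 18, 24921704 on chromosome 1 and 7577071 on chromosome 6, and the plus-strand members at 36073026 on chromosome 22 and 17693092 on chromosome 8. The choice of members used these ratios, so nothing is read from the counts.

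The limit at 72 hpf cuts through a continuous range of levels. Just inside it, among the 100 members of highest level, the chromosome 10 minus-strand site at 6800174 had 33.5 CPM at 24 hpf, 8.36 at 72 hpf and 98.9 in adults, a ratio of 0.249 to the smaller level. Next to it stood the chromosome 23 minus-strand site at 43864441 with 30.8, 7.64 and 36.01 CPM (24 hpf, 72 hpf, adult). Just outside, the chromosome 5 minus-strand site at 13121190 had 46.3, 11.6 and 79.1 CPM, a ratio of 0.251. The chromosome 7 plus-strand site at 20649221 was the highest of the 5 nearest outside, at 248 CPM at 24 hpf, 62.7 at 72 hpf and 243 in adults.

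Among the leading members, the chromosome 1 plus-strand site at 24708929 had 9126 tags at 24 hpf, 1911 at 72 hpf and 14144 in adults, which are 1229, 194.7 and 1893 CPM. Its 72 hpf level was 0.158 times the 24 hpf level (95% interval 0.151 to 0.166) and 0.103 times the adult level (0.098 to 0.108). It was also the member with the most distinct intervals, that is, distinct aligned stretches behind its tags, with 65 at 24 hpf, 43 at 72 hpf and 81 in adults. Scaled to all intervals of a library, its 72 hpf level was 0.859 of the smaller level. By intervals the smaller level was that of adults, where by tags it was that of 24 hpf. The gap to adults seen in tags was thus mostly absent from the scaled number of intervals. However, distinct intervals need not rise in step with tags: 14144 adult tags lay on 81 intervals and 1911 tags at 72 hpf on 43. The number of intervals thus cannot give the depth of the gap at this site. The adult library had more intervals in all (517701) on fewer tags than the 72 hpf library, so the scalings by tags and by intervals differ. Against 24 hpf a gap remained: 43 intervals stood beside 65, in a library with more intervals in all (319885 against 235580).

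On chromosome 6, the plus-strand site at 9440548 had the lowest 72 hpf share of the 10 leading members. It held 1006 CPM at 24 hpf, 22.8 at 72 hpf and 912 in adults, on 36, 9 and 55 distinct intervals. The 72 hpf level was 0.023 times the 24 hpf level (95% interval 0.020 to 0.026) and 0.025 times the adult level (0.022 to 0.029), while the adult level was 0.907 times the 24 hpf level (0.877 to 0.937). By distinct intervals its 72 hpf level was 0.265 of the smaller level. Over the 10 leading members this value ran from 0.245, at 26187828 on chromosome 16, to 0.963, at 24708916 on chromosome 1.

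The minus-strand site on chromosome 22 at 17813696 stood at 1258, 94.97 and 978 CPM in the same order of stages, and the plus-strand site on that chromosome at 40858664 at 687, 56.5 and 1479.8 CPM. A second member lay close by at 40858725, with 110.3 CPM at 24 hpf, 6.52 at 72 hpf and 116 in adults. The leading members on chromosome 3 (minus strand, 40255755) and chromosome 25 (plus strand, 240768) had lower levels. The first had 330.0 CPM at 24 hpf, 54.1 at 72 hpf and 415 in adults. The second had 245, 49.8 and 459 CPM, and it rested on 44, 31 and 65 distinct intervals. Both were thus still clearly detected at 72 hpf, as were all of the 10 leading members, the least of which had 224 tags there.

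At the other end were members without any 72 hpf tag, chosen for naming after their values were seen. The highest of them was the chromosome 25 plus-strand site at 23058621, with 620 tags at 24 hpf (83.5 CPM) and 841 in adults (113 CPM), on 7 and 15 distinct intervals. The chromosome 17 plus-strand site at 24272481 came next, with 202 and 308 tags, but only 3 distinct intervals in each of these libraries.

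The members lay on all 25 numbered chromosomes, from 33 members on chromosome 16 (7.38% of its 447 sites of like level) to 10 on chromosome 24 (3.73% of 268), and 6 lay on unplaced sequence. The plus strand held 258 of them. They were mostly scattered: of 410 bins of 500 kb with a member, 340 held 1, 57 held 2 and 13 held 3 or more. The bin with the most members lay on chromosome 1 between 24.5 and 25 Mb, where 7 of 16 sites of like level were members, followed by the chromosome 16 bin that starts at 26 Mb with 5 of 16. On chromosome 16 between 31.5 and 32 Mb 4 of 8 were members, and on chromosome 20 between 10.5 and 11 Mb 4 of 6. These counts rest in part on ends close together. In the chromosome 1 bin 4 members lay within 160 nt. In the chromosome 16 bin from 26 Mb 3 lay within 178 nt, and in the chromosome 20 bin 3 within 240 nt.

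When members of a strand no more than 5000 nt apart were joined, 436 stood alone and 65 fell into 30 runs, of which 26 held 2 members and 4 held 3 or more. These 4 runs were each made of 1 or 2 strong sites with weak ones beside them. The chromosome 1 run spanned 160 nt, with the site at 24708916 (1166 CPM at 24 hpf, 91.3 at 72 hpf and 896 in adults), the one at 24708929 13 nt downstream, and weaker sites at 24708976 and 24709076. The run as a whole held 2449.8 CPM at 24 hpf, 291 at 72 hpf and 2827 in adults. All of its sites were low at 72 hpf, also the weakest, with 12.9, 1.43 and 13.5 CPM. Whether ends as close as 13 nt are separate sites was not tested. With a clustering window of 24 nt the ends at 24708916 and 24708929 fell into the same site, with a log2 ratio of -3.07 to the smaller level. The 501 members became 480 with that window. Both ends are counted separately among the leading members here.

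On chromosome 16 a run of 178 nt led to the plus-strand site at 26212947, which had 1723 CPM at 24 hpf, 240.4 at 72 hpf and 1003 in adults but only 12, 7 and 14 distinct intervals. Another leading member of the same strand, at 26187828, had 1022, 121 and 2059 CPM. The order of these sites thus differed between stages: the first was higher at 24 hpf and the second in adults. On chromosome 20 the plus-strand site at 10728046 held 868 CPM at 24 hpf, 141 at 72 hpf and 939.7 in adults. Its weaker companions at 10728061 and 10728286 had 12.9 and 12.8 CPM at 24 hpf, with 0 and 1 tag at 72 hpf. The chromosome 20 site at 10734267, further downstream, had 414, 55.0 and 1069 CPM. The run on the minus strand of chromosome 8 spanned 2862 nt and was led by the site at 1383674, with 629 CPM at 24 hpf, 26.1 at 72 hpf and 230.2 in adults.

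**Figure D2:**
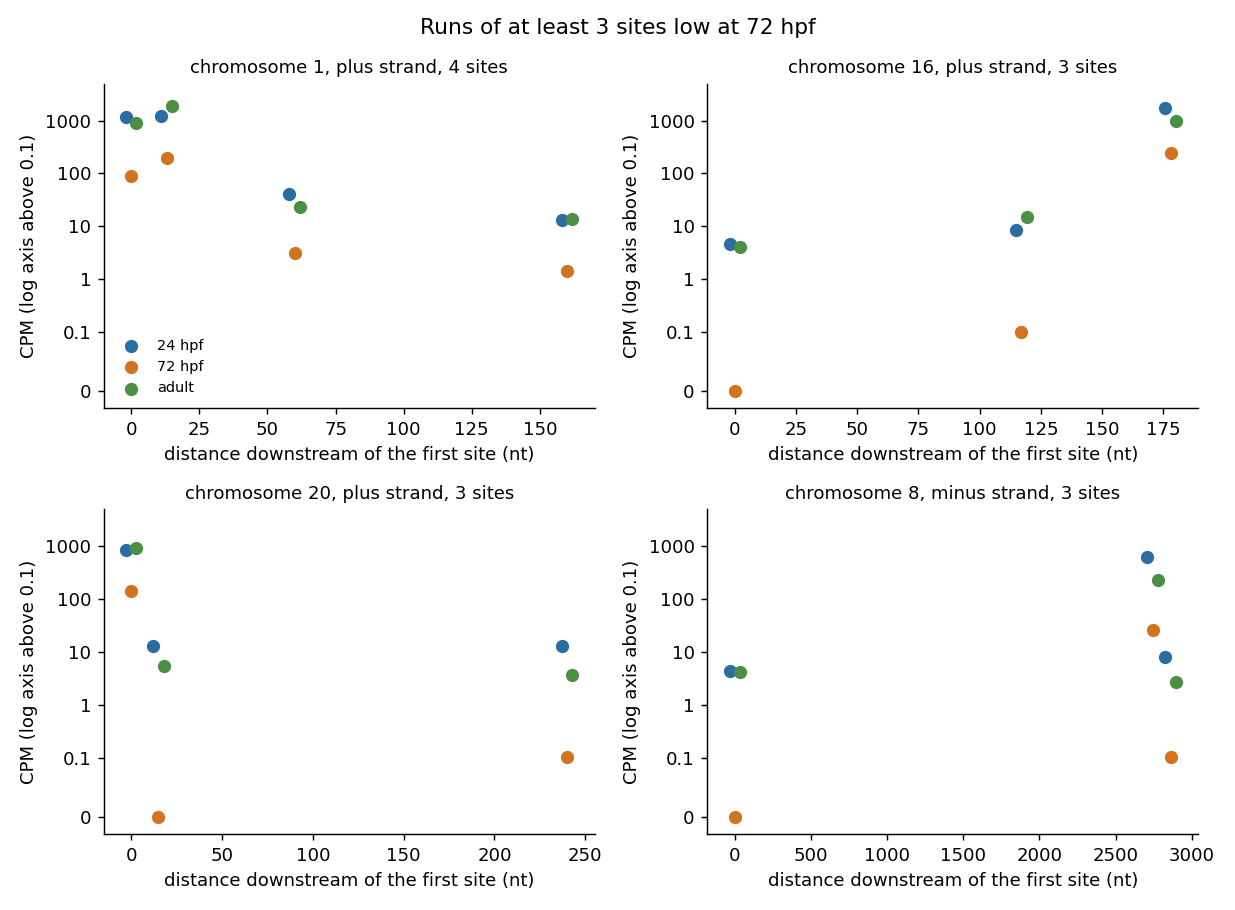
Points give the level of each member in CPM (log axis above 0.1, linear below) in the 24 hpf, 72 hpf and adult libraries, against the distance in nt downstream of the first member of its run, for the 4 runs of 3 or more members. Points of a site are set slightly apart so that they can be told from each other. In each run the 72 hpf point of every member lies under its 24 hpf and adult points, which follows from the choice of members.

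Near-equal counts at another site were looked for, since copies of a sequence can share tags. Of the 89 members with at least 100 tags both at 24 hpf and in adults, 6 had another site within 500 kb whose counts lay within 1.1-fold in both libraries (6.74%, interval 2.51% to 14.1%), and in the comparison set 132 of 3310 had one (3.99%, 3.35% to 4.71%), so the intervals overlap. The chromosome 14 minus-strand members at 36630358 and 36567409 lay 62949 nt apart and held 354 and 323 tags at 24 hpf, 58 and 75 at 72 hpf and 1134 and 1133 in adults. Those on chromosome 10, minus strand, at 34282892 and 34208824 lay 74068 nt apart, with 209 and 191, 65 and 58, and 449 and 429 tags in the same order of stages. For the other two members the matching site was no member and was higher at 72 hpf. The chromosome 17 plus-strand member at 25417686 had 211, 52 and 321 tags and its match at 25132180 had 202, 289 and 329, and the chromosome 5 plus-strand member at 21167841 had 117, 9 and 187 tags and its match at 21112619 had 108, 687 and 171. Whether these are copies of a sequence that share their tags was not tested.

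The sites around a member bear on whether the whole neighbourhood was low at 72 hpf. Those that are not members were not chosen by the rule, while those that are members were chosen for being low at 72 hpf. Neighbours were sites of the same strand 50 to 5000 nt away with at least 20 tags over the libraries. A neighbour may belong to another gene. With other members allowed as neighbours, 171 members (34.1%) stood alone, 142 (28.3%) were above each of their neighbours in the smaller of the 24 hpf and adult levels, and 188 (37.5%, interval 33.3% to 41.9%) were below one. In the comparison set 46.5% stood alone, 38.4% were above each neighbour and 15.1% were below one (interval 14.4% to 15.8%). Members had lower levels than the comparison set, and a low site is more easily below a neighbour. Among sites with a smaller level under 5 CPM the share was 47.6% of 290 members (41.7% to 53.5%), against 26.2% of 3403 comparison sites (24.8% to 27.8%). From 5 to under 10 CPM it was 34.8% of 89 members (25.0% to 45.7%), against 13.6% (12.1% to 15.2%), and from 10 CPM 15.6% of 122 members (9.64% to 23.2%), against 6.51% (5.77% to 7.31%). In each range of level members were more often below a neighbour, with intervals that do not overlap. These intervals treat the sites as independent. However, 65 members fell into 30 runs, and members of a run can be each other's neighbours. The 142 members above each neighbour held 62.7% of the members' tags at 24 hpf, 67.9% at 72 hpf and 65.8% in adults, and the 188 lesser ones 7.02%, 6.36% and 8.22%.

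Of the members whose neighbours could be measured, most had neighbours above 0.25 of their smaller level at 72 hpf, with or without members as neighbours. Not counting other members, 307 members had a neighbour, and in 215 the neighbours summed to at least 2 CPM both at 24 hpf and in adults. In only 3 of these 215 were the neighbours also at most 0.25 of their smaller level at 72 hpf (1.40%, interval 0.289% to 4.02%), where 1.70% of 2938 sites of the comparison set showed this. These 3, named after their values were seen, were the chromosome 8 minus-strand members at 1386418 and 1383556, which belong to the run described above, and the chromosome 16 plus-strand member at 31942801, with neighbours at 4.31, 0.61 and 18.2 CPM in the order of stages. Leaving members out as neighbours takes low sites out of the sum, so this share is held down by the way it was built and is not read against the comparison set. It was 4.84% with median-ratio scaling of the libraries, 9.02% for members at most 1/8 of the smaller level at 72 hpf and 10.8% for members of at least 5 CPM. With the 1/8 and 5 CPM limits, members that failed the stricter limit counted as neighbours again. These shares are thus not read as a trait of the members that passed it. With members allowed, the neighbours were low around 37 of 249 members (14.9%, interval 10.7% to 19.9%), against 4.34% of 3042 sites of the comparison set (3.64% to 5.12%). Neighbours that are members were chosen for being low at 72 hpf, and members of a run count each other. This share thus rests in part on the values that the rule used and is not read against the comparison set either.

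With members allowed, the neighbours' 72 hpf level was a median of 0.988 times their smaller level (middle 50% of members 0.473 to 1.76), against 1.39 in the comparison set (0.761 to 2.51). Neighbours that are members were chosen for being low at 72 hpf, so these medians are not read against each other. Without members as neighbours the median was 1.197 for 215 members, against 1.47 for the comparison set, so whether the median lies above or below 1 depends on this choice. The site and its neighbours together, members allowed, stood at a median of 0.629 times their smaller level, against 1.36 in the comparison set, and this sum includes the levels that chose the members. Without members as neighbours, the median member had 15.8% of its own and its neighbours' level at 24 hpf, 1.57% at 72 hpf and 25.2% in adults. This share, too, includes those levels. In the comparison set it was 41.4%, 41.7% and 40.5%.

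**Figure D3:**
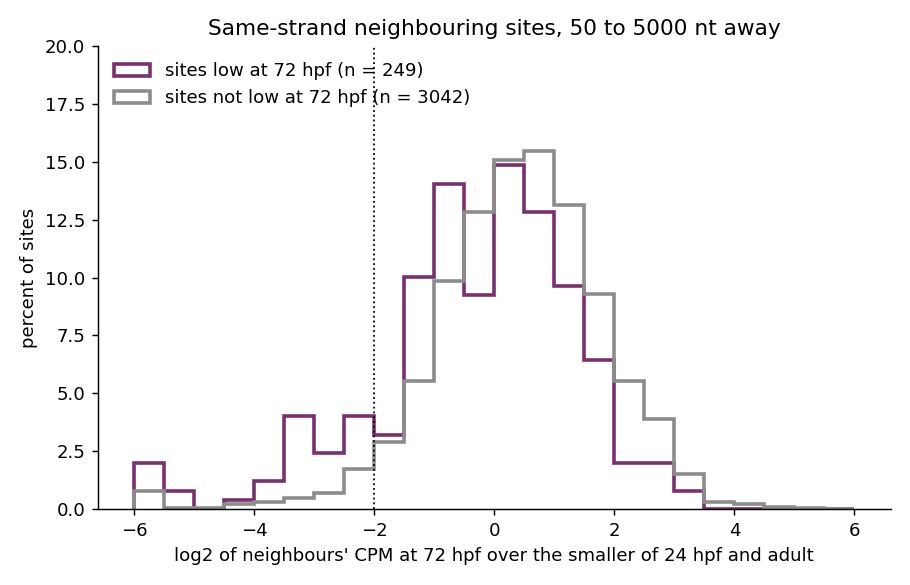
Distribution of the neighbours' level at 72 hpf over the smaller of their 24 hpf and adult levels, on a log2 scale, as percent of the 249 members and of the 3042 comparison sites with measurable neighbours, members allowed as neighbours. The dotted line marks a ratio of 0.25, at or under which lie 14.9% of members and 4.34% of comparison sites, and values under the scale are drawn in its lowest bin. Neighbours that are members were chosen for being low at 72 hpf.

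The highest neighbour, that with the most CPM summed over the 3 libraries, lay on the downstream side of most members that had a neighbour. It was downstream for 233 of 307 members (75.9%, exact 95% interval 70.7% to 80.6%), at a median distance of 389 nt (middle 50% 177 to 1146 nt), and for 2403 of 5034 comparison sites (47.7%, 46.3% to 49.1%). Among sites whose smaller level was under 10 CPM the shares were 74.7% (68.7% to 80.1%) for members and 49.3% (47.5% to 51.1%) for the comparison set. With members allowed as neighbours it was 74.5% against 47.2%. Sites of like level at 24 hpf and in adults whose 72 hpf level was at least 4 times the larger of them had their highest neighbour downstream in 67 of 172 cases (39.0%, 31.6% to 46.7%). Comparison sites can be each other's highest neighbour, and such pairs would draw their share towards an even split. How many such pairs there were was not counted. For this reason sites below a neighbour were also set side by side, with members allowed as neighbours. Among these the highest neighbour was downstream for 146 of 188 members (77.7%, 71.0% to 83.4%), against 753 of 1433 comparison sites (52.5%, 49.9% to 55.2%). Among sites above each neighbour it was 100 of 142 members (70.4%, 62.2% to 77.8%), against 1645 of 3651 comparison sites (45.1%, 43.4% to 46.7%). In both classes the intervals do not overlap, though they treat the sites as independent. For sites below a neighbour within ranges of level they overlap from 5 to under 10 CPM, at 77.4% of 31 members (58.9% to 90.4%), against 55.8% (49.7% to 61.8%), and also from 10 CPM, at 78.9% of 19 members (54.4% to 93.9%), against 48.5% (42.3% to 54.7%). For sites above each neighbour they overlap under 5 CPM, at 62.5% of 56 members (48.5% to 75.1%), against 46.6% (43.5% to 49.8%). In the remaining ranges of both classes they do not overlap.

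The side of the highest neighbour also went with the level of all neighbours together at 72 hpf. The 72 hpf level takes part in choosing the highest neighbour, so the side and this level are not independent. Without members as neighbours and where the highest neighbour was downstream, the neighbours' summed 72 hpf level was a median of 1.33 times their smaller level over 167 members. Where it was upstream, the median was 0.611 over 48 members. The comparison set showed the same order, with medians of 1.89 (1487 sites, neighbour downstream) and 1.096 (1451 sites, neighbour upstream).

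**Figure D4:**
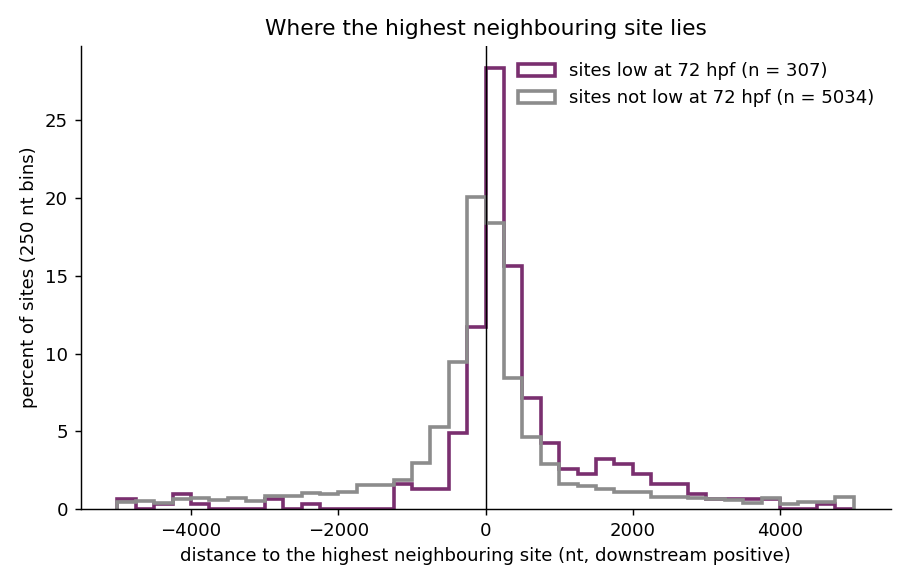
Distance in nt from a site to its highest same-strand neighbour, positive where the neighbour is downstream, as percent of 307 members and 5034 comparison sites. The members' curve is heavier to the right of 0, where 75.9% of them lie, against 47.7% of the comparison sites.

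The members whose neighbours were highest at 72 hpf, among those with at least 50 neighbour tags at 24 hpf and in adults, were followed site by site. Other members were not counted as neighbours here. The members were chosen for being low at 72 hpf, and these also for neighbours that were high there. Low shares at 72 hpf thus follow in large part from the choice, and the shares are a description. The chromosome 3 plus-strand member at 17452414 had 43 tags at 24 hpf, 4 at 72 hpf and 32 in adults. Its highest neighbour lay 1569 nt downstream at 17453983, and the neighbours together held 84.6 CPM at 24 hpf, 128.9 at 72 hpf and 13.3 in adults. The member's share of these tags was 6.41% at 24 hpf (95% limits 4.68% and 8.54%), 0.315% at 72 hpf (0.0859% to 0.805%) and 24.4% in adults (17.3% to 32.7%).

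On the plus strand of chromosome 23, the member at 7652449 had 44.3 CPM at 24 hpf, 9.58 at 72 hpf and 44.8 in adults, and the highest neighbour lay 1660 nt downstream. The neighbours held 48.0, 53.0 and 10.4 CPM. The member thus took 48.0% of the tags at 24 hpf (44.2% to 51.9%), 15.3% at 72 hpf (12.6% to 18.4%) and 81.1% in adults (77.0% to 84.8%). The chromosome 1 plus-strand member at 51933832, with its highest neighbour 3112 nt downstream, had shares of 12.2%, 1.95% and 35.6%.

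The chromosome 5 plus-strand member at 29078866 had the opposite layout, with its highest neighbour 146 nt upstream at 29078720. It had 141 tags at 24 hpf, 0 at 72 hpf and 336 in adults. The exact 95% interval allows a 72 hpf level of up to 0.0201 times the 24 hpf level and up to 0.0084 times the adult level. Its neighbours had 91.1 CPM at 24 hpf, 73.3 at 72 hpf and 10.3 in adults. The member's share was 17.3%, then 0% of 719 tags (interval up to 0.512%), then 81.4%. It rested on 6 distinct intervals at 24 hpf and 6 in adults. On chromosome 19, minus strand, the member at 49858394 had 3.10 CPM at 24 hpf, 0.61 at 72 hpf and 4.28 in adults, while its neighbours had 14.0, 128 and 1047 CPM. There the member's share was low at both later stages, 0.475% at 72 hpf and 0.407% in adults, against 18.1% at 24 hpf.

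Conversely, the 5 members with the lowest neighbours at 72 hpf, by the same minimum of neighbour tags, had neighbours at 0.271 to 0.367 of their smaller level. This list, too, leaves out other members as neighbours. With members allowed, 37 of 249 members had neighbours at or under 0.25. The chromosome 10 plus-strand member at 36186987 had 38.0 CPM at 24 hpf, 4.48 at 72 hpf and 64.1 in adults, and its neighbour 62 nt downstream had 28.6, 4.79 and 14.1 CPM. The member's share at 72 hpf, 48.4% (37.7% to 59.1%), overlapped that at 24 hpf, 57.1% (52.6% to 61.5%), and both lay under that in adults, 82.0% (78.7% to 85.1%). The neighbour stood at 0.341 of its smaller level, above the limit of 0.25 used for the members. On chromosome 1, plus strand, the member at 8237777 had 24.8, 5.81 and 90.5 CPM and its neighbours 226, 69.7 and 244 CPM (24 hpf, 72 hpf, adult), which is 0.308 of their smaller level at 72 hpf. Its share was 9.87% at 24 hpf (8.55% to 11.3%), 7.69% at 72 hpf (5.88% to 9.85%) and 27.0% in adults (25.3% to 28.8%), so the interval at 72 hpf overlapped that at 24 hpf and lay under that in adults. The chromosome 4 minus-strand member at 24275174 had no tags among 32 at 72 hpf, which allows a share of up to 10.9%, with 22.9% at 24 hpf and 16.7% in adults. The chromosome 7 plus-strand member at 41619806 had shares of 24.8% at 24 hpf, 0% at 72 hpf and 17.3% in adults. For the chromosome 4 minus-strand member at 7031282 they were 42.4%, 24% and 19.7%.

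**Figure D5:**
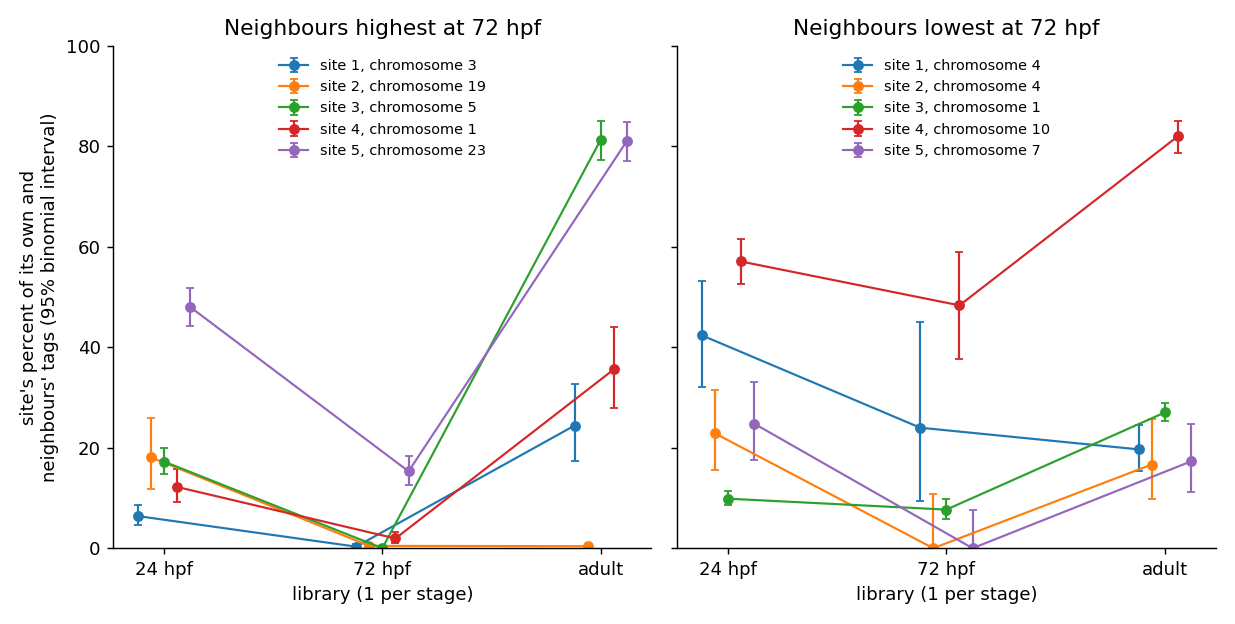
Percent of a member's own and its neighbours' tags that lay at the member, in each library, with exact 95% binomial intervals, for the 5 members whose neighbours were highest (left) and the 5 whose neighbours were lowest at 72 hpf (right). Other members were not counted as neighbours. Members were chosen for being low at 72 hpf, and those on the left also for neighbours high there. Low shares at 72 hpf thus follow in large part from the choice. On the left, the members on chromosomes 3, 5, 1 and 23 have their lowest share at 72 hpf and that on chromosome 19 is low at 72 hpf and in adults. On the right the chromosome 10 member stays between 48.4% and 82.0%. The members at 41619806 on chromosome 7 and 24275174 on chromosome 4 have 0% at 72 hpf. On the right only the member at 7031282 on chromosome 4 has its lowest share in adults, and the others have it at 72 hpf.

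Distinct intervals count the different aligned stretches behind the tags. At 24 hpf and in adults, 487 members (97.2%, interval 95.4% to 98.5%) had at least 2 distinct intervals in each library, and in the comparison set 99.5% (99.3% to 99.6%). A single interval carried 13 members at 24 hpf and 4 in adults, those in adults on chromosome 21 (29536217), chromosome 8 (1386418 and 51350197) and chromosome 2 (59673092). The median member had 5 distinct intervals at 24 hpf, 2 at 72 hpf and 11 in adults, and the median comparison site 8, 10 and 13. Each interval of a member held a median of 8.08 tags at 24 hpf, 3.40 at 72 hpf (395 members with tags there) and 4.83 in adults, against 10.5, 13.7 and 6.41 in the comparison set. Scaled to all intervals of a library, the members' 72 hpf level was under both others for 490 of 501, but at most 0.25 of the smaller for only 204 (40.7%), with a median of 0.360 where tags gave 0.133. In the comparison set it was under both others for 24.4% of 9504 sites, with a median of 1.35 where tags gave 1.51. The intervals lie behind the tags that chose the members, so the count of 490 follows in large part from the choice. For the 501 members, the depth of the gap at 72 hpf was thus less for distinct intervals than for tags. Distinct intervals need not rise in step with tags, and how far this or copies of the same molecule add to the difference was not tested. Choosing sites by distinct intervals gave 2648, of which 174 were among the 501. Only 47.6% of the 2648 had at least 2 distinct intervals both at 24 hpf and in adults. Many thus passed on 1 interval in a library, where each of the 501 had at least 15 tags at 24 hpf and in adults. The limits on level were thus unlike, and the overlap is not read as a measure of how far tags and intervals differ.

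Within a site, the leading end was mostly the same at 24 hpf and in adults. A site holds only ends within 10 nt of its position in the pooled libraries, which limits how far apart the leading ends could lie. The position with the most tags was the same at 24 hpf and in adults for 387 members (77.2%, interval 73.3% to 80.8%) and within 2 nt for 83.0%. Among comparison sites, which had more tags, it was the same for 86.0% (85.3% to 86.7%). A member's ends fell at a median of 4 positions, and the leading one held a median of 78.0% of its tags, against 5 positions and 78.0% in the comparison set. A site on the other strand lay within 100 nt of 24 members (4.79%, 3.09% to 7.04%) and of 6.008% of the comparison set (5.54% to 6.50%), a difference within the interval of the members' share.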

How the data were processed

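Whole-number counts per interval were deposited by the authors for each library, not normalized as far as the values show. They stand in the name field, no label says what they are, and they were read here as tags. Alignment was with Bowtie to Zv9 (danRer7), per the submitters' processing notes; the sources used here do not give its version, trimming or match filters. The display offset of 1 in the file headers was added, so positions are 1-based danRer7.

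The 3′ end was the interval's end (plus strand) or start (minus strand). Ends of the libraries were pooled, and, in falling order of tags, each position took up those within 10 nt not yet assigned. Clusters of at least 4 tags were kept. The limit between 24 hpf and the adult was read as 4 times the other level plus 0.5 CPM. Members, lists and tests were chosen with earlier results of these data known. Named sites were those of highest level, most intervals, nearest the limit at 72 hpf, and with the highest and lowest neighbours at 72 hpf. With 1 library per stage no p-value is given. Intervals are exact Clopper-Pearson 95% intervals (conditional for ratios); depth per library is given above. Steps were tested on simulated data. The 13 other samples were not analysed here. Alternatives changed the clustering, scaling, depth, limits and neighbour distance. Python 3.11.15, numpy 2.4.6, pandas 2.3.3, scipy 1.17.1 and matplotlib 3.10.9 were used.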

Additional observations from a re-analysis of the deposited data

How the results depend on the processing

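No paired analysis was possible because each stage has 1 library, and no replicate could be left out. The number of members, 501, became 238 with 72 hpf at most 1/8, 211 with at least 5 CPM and 2648 with distinct intervals in place of tags, and it stayed within 1.5 times under the other settings. Median-ratio scaling, which shifted log2 ratios by -0.24 (72 hpf against 24 hpf), 0.73 (adult against 72 hpf) and 0.49 (adult against 24 hpf), gave 729 members, 441 of them shared with the 501. Distinct intervals shared 174, but there a site could pass on 1 interval in a library, so the limits on level were unlike. The members' percent of tags at 24 hpf, 72 hpf and in the adult was 2.45, 0.358 and 2.53 with median-ratio scaling, 2.27, 0.0872 and 2.89 of intervals with distinct intervals, 0.799, 0.0502 and 0.905 with the 1/8 limit, and 1.60, 0.193 and 1.93 with at least 5 CPM. It was 0.206 at 72 hpf with a 24 nt window, 1.73 and 2.08 at 24 hpf and in the adult with thinned libraries, and 1.73 and 2.09 with the left-out regions kept in. At least 2 intervals in both libraries were found for 47.6% of members with distinct intervals and 99.5% with at least 5 CPM. A neighbour was found for 46.2% with distinct intervals, 67.2% with the 1/8 limit, 55.7% within 2000 nt, 79.4% within 20000 nt and 65.9% with members allowed. Neighbours were low around 4.84% with median-ratio scaling, 9.02% with the 1/8 limit, 10.8% with at least 5 CPM, 15.8% when low meant at most 1/2, and 14.9% with members allowed as neighbours. With the 1/8 limit and with at least 5 CPM, members that failed the stricter limit counted as neighbours again. The highest neighbour was downstream for 69.1% within 20000 nt, and for 71.1% to 80.4% under the other settings run. Calls over all sites became 1244 lower for 72 hpf against 24 hpf and 3419 lower for the adult against 24 hpf with an 8-fold rule, and 5343 lower for the adult against 72 hpf with median-ratio scaling, against 2223, 5270 and 8386. For 26 named members with tags at 72 hpf, 0 of 130 values changed sign and 42 left their counting interval. All of them started at or under 0.25 of the smaller level by the rule, so a change of sign was unlikely and nothing is read from its absence. With sites built again from distinct intervals, 2 of the 26 were at most 0.25 of the smaller level. The side of the highest neighbour and the ranges of level were examined after seeing the data. Reading the limit between 24 hpf and the adult as 4-fold on CPM plus 0.5, and allowing members as neighbours, were chosen after seeing the data, and the first gave 504 members. The cause of these changes was not tested. Low tag counts limit most members, whose median was 5 tags at 72 hpf.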

Other observations

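In the regions left out, 12 further sites met the limits on level: 5 on chromosome M, 5 on chromosome 4 from 28 Mb and 2 in the stretch of chromosome 22. The opposite course, a 72 hpf level of at least 4 times the larger of the 24 hpf and adult levels, was by CPM about as frequent as the one described here among the 10005 sites of like level at these stages, at 450 sites (4.498%, exact 95% interval 4.10% to 4.92%) beside 501 (5.01%, 4.59% to 5.45%). This depends on the scaling. Median-ratio scaling gave 729 members, and the opposite course was not counted with it.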
